A study of Mus musculus with 2 samples.

Results

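The neuropilins Nrp2 and Nrp1 and the plexins Plxna1, Plxna2, Plxna3, Plxna4 and Plxnd1 are the receptor genes through which class 3 semaphorins act. These 7 genes were taken by symbol from a count table of 49585 gene identifiers, and all 7 were among the 14420 genes that had 50 or more reads when the libraries were added. Messenger RNA had been sequenced from CD11b+ cells, pulled with magnetic beads from digested tumours that mouse pancreatic cancer lines had formed under the skin. The knockout animals carried floxed Nrp2 together with a Csf1r-driven Cre that the drug switches on (NRP2f/fCSF1R-iCRE, BL6 background), and received this drug, tamoxifen, into the peritoneum every day once their tumours could be felt. The control animals carried the same alleles on the same background, and the labels name no tamoxifen for them, so the drug and the deletion cannot be told apart. Tumours of both groups were taken at 15 days, and the labels state no age. RNA of 3 animals was pooled into 1 library per group, so the comparison has no replicates and no test was run on it. The Csf1r promoter is active in monocytes and macrophages, and which cells of a tumour lost Nrp2 was not measured here. The beads take every cell with CD11b on its surface.

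Semaphorins of class 3 are secreted, and most of them bind first to a neuropilin, which has a large outer part and a short tail with no enzyme activity of its own. The neuropilin sits beside a plexin, whose inner part is a GTPase-activating domain that lowers integrin adhesion and rearranges the cytoskeleton. Neuropilins are also co-receptors for vascular endothelial growth factors. On myeloid cells the family is known for steering migration into tissues and tumours, and on vessels for guiding their growth.

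Promoter windows of the neuropilin genes and of Plxnd1, the most abundant plexin of these cells, are shown here because these genes carry the levels described next. They come from RefSeq on GRCm38.p6, whose table matched 5 of the 7 genes, and run 5′ to 3′ on the strand of the gene. They cover chr1:62703067-62703284 on the plus strand for Nrp2, chr8:128358823-128359072 on the plus strand for Nrp1 and chr6:115995006-115995255 on the minus strand for Plxnd1. The Nrp1 window lies inside Nrp1 as annotated, which starts at 128358604, so it is not upstream of that start. The Nrp2 window was cut to end before the annotated start of Nrp2 at 62703285, and no other window was cut. Capitals mark GC boxes, the letters GGGCGG or, for the other strand, CCGCCC.
Nrp2: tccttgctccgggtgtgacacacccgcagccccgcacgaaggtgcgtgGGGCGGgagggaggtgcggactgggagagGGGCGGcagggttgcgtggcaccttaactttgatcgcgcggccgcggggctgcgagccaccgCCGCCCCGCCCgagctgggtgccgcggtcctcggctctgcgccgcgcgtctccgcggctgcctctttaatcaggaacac
Nrp1: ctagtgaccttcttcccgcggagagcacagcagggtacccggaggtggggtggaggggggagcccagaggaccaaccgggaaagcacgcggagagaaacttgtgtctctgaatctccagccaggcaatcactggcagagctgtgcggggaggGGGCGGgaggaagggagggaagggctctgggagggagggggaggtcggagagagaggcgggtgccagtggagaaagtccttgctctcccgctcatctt
Plxnd1: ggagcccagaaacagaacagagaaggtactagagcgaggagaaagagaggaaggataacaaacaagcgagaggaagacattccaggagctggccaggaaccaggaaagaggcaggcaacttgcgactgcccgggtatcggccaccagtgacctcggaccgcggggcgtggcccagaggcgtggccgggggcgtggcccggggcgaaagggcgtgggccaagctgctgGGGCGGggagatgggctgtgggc
The Nrp2 window held 4 GC boxes, 2 of which share a base, and 72.5% of its 218 bases were G or C. The Nrp1 and Plxnd1 windows of 250 bases held 1 GC box each, with 64.4% and 64.8% G or C. Of the 32851 windows in the whole table, 32.7% held at least 1 GC box, and the median window had 52.4% G or C. A match is a description of the letters and not of a bound site.

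The knockout library held 68554172 counted reads over 17566 detected genes, and the control library 64153676 over 16257. Where a gene passed 4 reads in a single library and was missing from its counterpart, the median was 24 reads in the knockout library and 47 in the control library, so each captured fragment was taken as worth that many reads. The intervals given with ratios are 95% exact Clopper-Pearson intervals on counts divided by these values, and they cover counting error only, not the variation among mice. The limit set by a count of 0 is 3 fragments, or 72 reads in the knockout library and 141 in the control library. The CD11b gene Itgam had 28237 reads in knockout cells and 19301 in control cells, and all 10 macrophage markers on the list used here were detected in both libraries.

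Levels were expressed as RPKM, reads per kilobase of all annotated exons of a gene and per 1000000 scaled reads, so that genes of different length can be set side by side. In the knockout library the order was Plxnd1 at 31.7, Plxna1 at 18.0, Nrp1 at 10.5, Nrp2 at 1.28, Plxna3 at 0.123, Plxna2 at 0.0808 and Plxna4 at 0.0254 RPKM. In the control library it was Plxnd1 at 24.3, Nrp2 at 12.5, Nrp1 at 9.98, Plxna1 at 9.38, Plxna3 at 0.649, Plxna4 at 0.251 and Plxna2 at 0.0851 RPKM. Plxnd1 led and Nrp1 came next after Plxna1 in knockout cells and after Nrp2 in control cells, and Nrp2 and Plxna1 stood in each other's place. Counting intervals of neighbours overlapped for Plxna3, Plxna2 and Plxna4 in knockout cells. In control cells they overlapped between Nrp2 and Nrp1, between Nrp1 and Plxna1, and among Plxna3, Plxna4 and Plxna2.

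**Figure D1:**
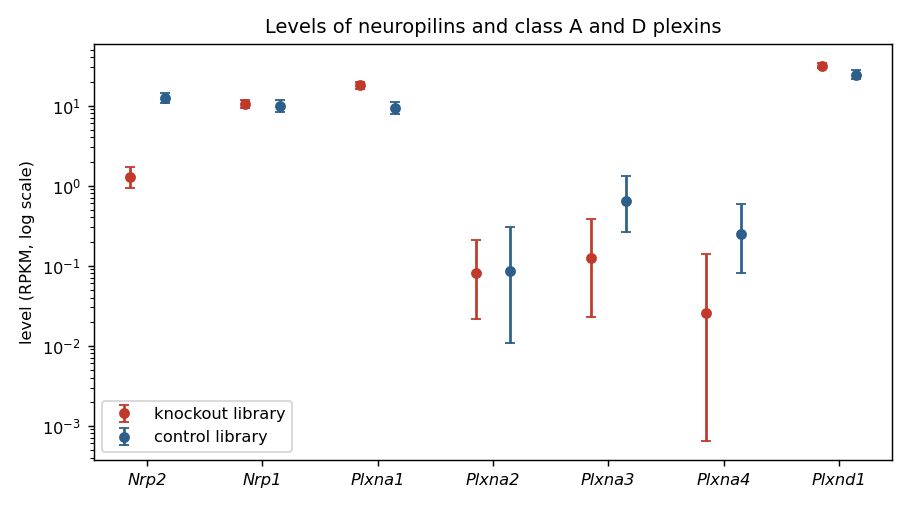
Level of each gene in RPKM on a log axis, knockout library left (red) and control library right (blue) of each pair, 1 pooled library each, with bars for the 95% counting interval. Nrp2 stands at 1.28 RPKM in knockout cells and 12.5 RPKM in control cells, while the Nrp1 points, 10.5 RPKM in knockout cells and 9.98 RPKM in control cells, have overlapping bars.

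Nrp2, the targeted gene, encodes the neuropilin that binds semaphorins such as Sema3f and is a co-receptor for VEGF-C. It lies on chromosome 1 of GRCm38 from 62703285 to 62818695 (ENSMUSG00000025969). It had 1017 reads in the knockout library and 9686 in the control library, or 15.2 CPM in knockout cells and 148 CPM in control cells (counts per 1000000 TMM-scaled reads). Its level was 9.72-fold lower in knockout cells, with an interval of 6.95 to 13.9. Among the 9054 genes with at least 1000 reads, 16 had a ratio as low as that of Nrp2 or lower, itself counted. In rank by CPM among detected genes it stood at 7334 in the knockout library and at 1175 in the control library.

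The remaining Nrp2 reads were 12.9% of all neuropilin reads in knockout cells (exact 95% interval on fragments 9.47% to 17.0%), against 60.2% in control cells (54.8% to 65.4%). Per length, Nrp2 made up 10.9% of a neuropilin sum of 11.8 RPKM in knockout cells and 55.5% of a sum of 22.4 RPKM in control cells. So the lower neuropilin sum of knockout cells was a lower Nrp2 level with an Nrp1 level close to that of control cells.

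Ratios within a library do not depend on how the libraries were scaled. Per 1000 reads of Csf1r, the gene of the CSF1 receptor whose promoter drives the recombinase, there were 8.24 reads of Nrp2 in knockout cells and 66.9 in control cells, 8.12-fold fewer (5.83 to 11.7). Against the macrophage receptor gene Adgre1 the fold was 7.08 (5.05 to 10.3), against the leukocyte gene Ptprc 7.16 (5.10 to 10.4) and against Itgam 13.9 (9.82 to 20.4). Against its paralogue Nrp1 it was 10.2 (6.88 to 15.6), with 148 reads of Nrp2 per 1000 of Nrp1 in knockout cells and 1511 in control cells. The lowest of these folds, 7.08, still left Nrp2 several-fold lower relative to genes that macrophages express. In pooled bulk cells, fewer cells with Nrp2 and less Nrp2 RNA per cell cannot be told apart.

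A gene count cannot show where along the transcript the remaining reads fell. Nrp2 has 7 annotated transcripts, 6 of them coding, and the count sums all exons, including those of a transcript that lacks a deleted stretch. The annotated genes that overlap Nrp2, Gm29083 and Gm37121, had 0 reads in knockout cells and, in control cells, 0 and 6 reads. Of the nearest annotated genes on either side, Gm11600 and Gm4208 had 0 reads in both libraries and Gm11599 had 2 reads in knockout cells and 12 in control cells. Ino80d, a chromatin remodelling subunit gene, had 2769 reads in knockout cells and 2359 in control cells, a ratio of 1.15 (0.819 to 1.64) that did not differ beyond counting error. The other coding genes within 2 places on either side, added after values were seen, differed in direction. Pard3b had 341 reads in knockout cells and 110 in control cells, a ratio of 3.04 (0.758 to 22.0). Icos, a T cell co-stimulator gene, had 327 reads in knockout cells and 1306 in control cells, a ratio of 0.245 (0.118 to 0.485). Ndufs1, a gene of the respiratory chain, had 4566 reads in knockout cells and 3333 in control cells, a ratio of 1.34 (1.02 to 1.79).

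Nrp1, the co-receptor for Sema3a and VEGF-A, had 6868 reads in knockout cells and 6411 in control cells, or 103 CPM in knockout cells and 97.6 CPM in control cells. The ratio was 1.05 and its interval, 0.853 to 1.30, holds 1. An increase of more than 1.30-fold, or a decrease below 0.853 of the control level, lies outside that interval. Nrp1 is on chromosome 8 from 128358604 to 128503363 (ENSMUSG00000025810).

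Plxna1 encodes a plexin that pairs with neuropilins and, on myeloid cells, with the Trem2 and Tyrobp receptor complex. It had 10906 reads in knockout cells and 5575 in control cells, or 163 CPM in knockout cells and 84.9 CPM in control cells. It was 1.92-fold higher in knockout cells (1.56 to 2.37), just under the 2-fold rule, and 494 of the 9054 better-read genes had a ratio as high or higher. Plxna1 is on chromosome 6 from 89316314 to 89362620 (ENSMUSG00000030084).

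Plxnd1 encodes the receptor of Sema3e, which it binds without a neuropilin. It had 15506 reads in knockout cells and 11667 in control cells, or 231 CPM in knockout cells and 178 CPM in control cells. The ratio of 1.30 had an interval above 1, from 1.12 to 1.51, and 2213 of the 9054 better-read genes lay as high or higher. Plxnd1 is on chromosome 6 from 115954811 to 115995005 (ENSMUSG00000030123).

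Per length, Plxnd1 and Plxna1 together carried nearly all of the class A and D plexin RNA. Plxnd1 made up 63.5% of a plexin sum of 49.9 RPKM in knockout cells and 70.1% of a sum of 34.7 RPKM in control cells, and Plxna1 36.0% in knockout cells and 27.0% in control cells. There were 93.3 reads of Nrp2 per 1000 reads of Plxna1 in knockout cells and 1737 in control cells, 18.6-fold fewer (12.5 to 28.2). Per 1000 reads of Plxnd1 there were 65.6 in knockout cells and 830 in control cells, 12.7-fold fewer (8.80 to 18.8).

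The other class A plexins were rare. Plxna3, a plexin known from axon guidance as a partner of neuropilin 2, had 65 reads in knockout cells and 336 in control cells, or 0.97 CPM in knockout cells and 5.12 CPM in control cells. Its ratio of 0.19 had an interval of 0.0285 to 0.859, and 2.71 fragments in knockout cells stood against 7.15 in control cells. Plxna4, a partner of neuropilin 1 that also acts in macrophages, had 24 reads in knockout cells and 232 in control cells, or 0.358 CPM in knockout cells and 3.53 CPM in control cells. Its ratio of 0.101 had an interval of 0.00214 to 0.912 and rests on 1 fragment in knockout cells and 4.94 in control cells. Both ratios lie below 1 by a few fragments. With the upper quartile of reads per fragment in place of the median, a setting chosen after seeing the data, the intervals were 0.0143 to 1.20 for Plxna3 and 0.000323 to 1.45 for Plxna4, which hold 1. The antisense gene Plxna4os1 overlaps Plxna4 and had 221 reads in knockout cells and 155 in control cells, and the strand setting of the counting is unknown, so the Plxna4 reads are uncertain.

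Plxna2, a plexin best known from the nervous system, had 93 reads in knockout cells and 96 in control cells, or 1.39 CPM in knockout cells and 1.46 CPM in control cells. Its interval ran from 0.134 to 10.3 around a ratio of 0.95, so a difference of several-fold was not detectable at this depth. Plxna2 is on chromosome 1 from 194618218 to 194816869 (ENSMUSG00000026640), Plxna3 on chromosome X from 74329066 to 74344689 (ENSMUSG00000031398) and Plxna4 on chromosome 6 from 32144268 to 32588192 (ENSMUSG00000029765).

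**Figure D2:**
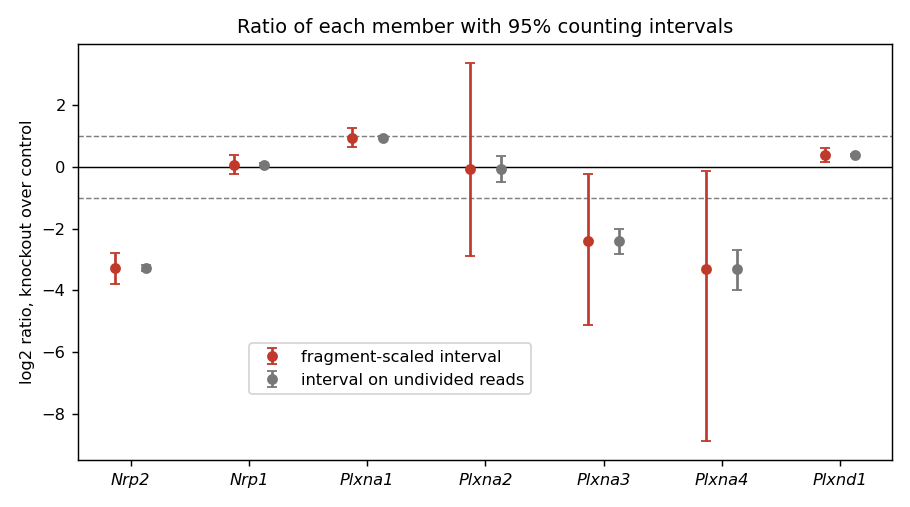
Log2 ratio of each gene, knockout over control, with the 95% interval on fragments (red) and on undivided reads (grey), and dashed lines at 2-fold. Points are drawn without the prior count. Nrp2 at -3.28 lies far below the dashed line with a short bar, while Plxna3 (ratio 0.19) and Plxna4 (ratio 0.101) have red bars that nearly reach 0.

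By the rule of size, 3 of the 7 genes (Nrp2, Plxna3 and Plxna4) were at least 2-fold lower in knockout cells, beside 14.7% of all 14420 genes, and 0 were at least 2-fold higher, beside 10.8%. Nrp2 was chosen for deletion, so its place in this and the next counts says nothing about the other genes. Apart from Nrp2, only the rare Plxna3 and Plxna4 were at least 2-fold lower, and no gene with at least 1000 reads was. Of the 4 genes with at least 1000 reads, 1 (Nrp2) was at least 2-fold lower, beside 4.02% of genes of that depth, and 0 were higher, beside 4.5%. The interval of the ratio lay below 1 for Nrp2, Plxna3 and Plxna4, beside 11.1% of all genes, and above 1 for Plxna1 and Plxnd1, beside 12.6%. The median log2 ratio was -0.07 over the 7 genes and -0.01 over all 14420. Depth bears on the rare plexins, since of the genes with 100 to 500 reads 31.7% passed 2-fold downward and 21.2% upward. Among genes with 10000 to 20000 reads, the range that holds Nrp2, these shares were 1.94% and 3.81%.

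**Figure D3:**
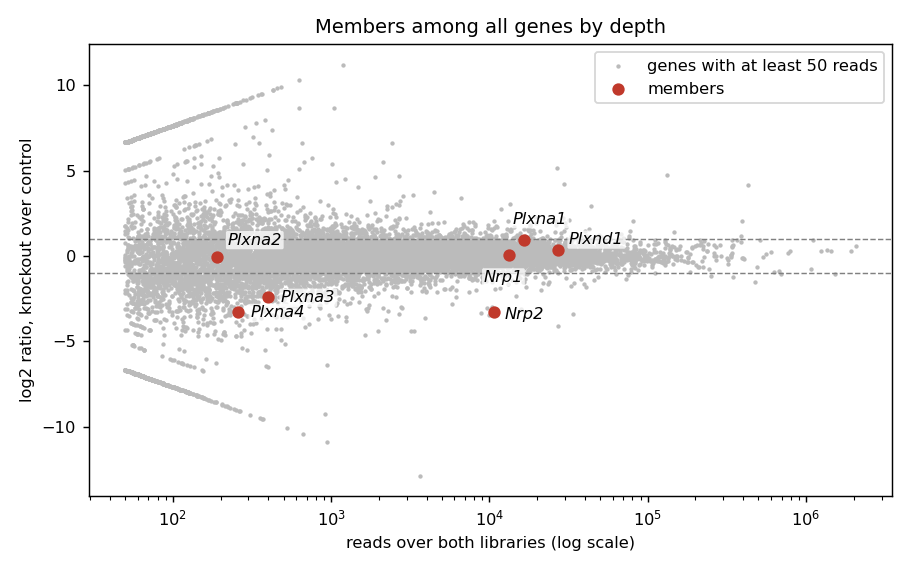
Log2 ratio, knockout over control, against reads over both libraries on a log axis, for all 14420 genes (grey) and the receptor genes (red), with dashed lines at 2-fold. Nrp2 lies at -3.28 where the grey points are narrow, and Plxna3 and Plxna4 lie where the grey points spread widely.

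In the authors' deposited table, Nrp2 had a log2 fold change of -3.27 with a standard error of 0.907 and an adjusted p of 0.331, the lowest value in that table and one shared by 35 of its 18864 genes. That table gave Plxna1 a log2 fold change of 0.95 (standard error 0.529) and Plxnd1 0.40 (0.435). The authors' deposited table listed an adjusted p that rounds to 1.0 for every receptor gene other than Nrp2. The way an error was obtained from 1 library per group is not described in the labels.

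The genes nearest to Nrp2 in log2 CPM over the 2 libraries were Cd209f, Dnase1l3, Cd72, Ighm and Klrb1b. They were sought among genes with at least 1000 reads and reads in both libraries, without predicted, RIKEN and unnamed genes. Cd209f, a C-type lectin gene, had 1079 reads in knockout cells and 8572 in control cells, at a distance of 0.196 in log2 CPM. Dnase1l3, a secreted nuclease gene, had 1188 reads in knockout cells and 9241 in control cells at a distance of 0.234, and Cd72, a lectin-like receptor gene of B cells and some macrophages, had 860 in knockout cells and 9140 in control cells at 0.256. The immunoglobulin gene Ighm had 810 reads in knockout cells and 8023 in control cells at 0.426, and Klrb1b, a lectin-like receptor gene, had 1424 in knockout cells and 5989 in control cells at 0.847. With 2 libraries this likeness says only that both levels were close.

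Of 70 ligand, partner, effector and other plexin genes, 57 had at least 50 reads. In this and the marker lists a gene at 0 reads in one library was counted as past 2-fold only where its bound against the floor passed it. Counted so, 6 (10.5%) were at least 2-fold lower in knockout cells and 5 (8.77%) at least 2-fold higher, beside 12.1% and 8.22% of all 14420 genes. The same shares of all genes stand beside each list below, but they cover genes of every depth. Without the rule for genes at 0 reads, 48.1% of genes with 50 to 100 reads were at least 2-fold lower and 30.1% higher. With 100 to 500 reads the shares were 31.7% lower and 21.2% higher. For a list of rare genes the shares of all genes are therefore too low a comparison, and no excess is read from them. The interval lay below 1 for 16 of the 57 (28.1%), beside 11.1% of all genes, and above 1 for 8 (14.0%), beside 12.6%. At 1000 reads or more stood 39 of the 57 pathway genes, against 9054 of all 14420. Intervals narrow with reads, and whether depth bears on the shares of intervals was not tested. Of those 39, 1 was at least 2-fold lower and 1 higher. The median log2 ratio of the 57 was -0.10 with Sema3a at its bound.

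The class 3 semaphorins, the ligands themselves, were scarcely transcribed in these cells. Sema3d had 0 reads in both libraries, and the most counted, Sema3c, had 117 reads in knockout cells and 235 in control cells, a ratio of 0.49 (0.111 to 2.14). Of 6 measured genes 3 were at least 2-fold lower and 0 higher, with a median log2 ratio of -0.62 with Sema3a at its bound. Sema3a had 0 reads in knockout cells and 58 in control cells, both under the floor, and the interval held 1 for each of the 6.

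Of the other semaphorins that act on these plexins, 4 of 7 were measured and 0 passed 2-fold, with a median of 0.12. Sema4a, a membrane semaphorin that binds plexin D1, had 13026 reads in knockout cells and 21752 in control cells, a ratio of 0.59 (0.518 to 0.666). Among the VEGF ligands 3 of 5 were measured and 0 passed 2-fold, with a median of -0.42. Vegfa, the ligand that neuropilin 1 helps to bind, had 40165 reads in knockout cells and 41852 in control cells, a ratio of 0.94 (0.867 to 1.02). Vegfc, the ligand linked to neuropilin 2, had 45 reads in knockout cells and 0 in control cells, both under the floor.

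The VEGF receptors, which share ligands with the neuropilins, were few in reads and 2 of 3 (Flt1 and Kdr) were at least 2-fold lower and 1 (Flt4) at least 2-fold higher (median -1.28). Flt1 had 607 reads in knockout cells and 1442 in control cells and was 2.42-fold lower, with a ratio of 0.41 (0.234 to 0.722). Kdr and Flt4, named after their values were seen, had 130 and 85 reads in knockout cells and 513 and 36 in control cells. The interval of Kdr, 0.0710 to 0.757, lay below 1 and that of Flt4 held 1.

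Among other neuropilin and plexin partners, 11 of 12 were measured, 0 were at least 2-fold lower and 2 (Hgf and Chl1) at least 2-fold higher, with a median of 0.07. Of the partners, 9 had at least 1000 reads, and intervals narrow with reads. The intervals lay below 1 for 4 of the 11 and above 1 for 4 (36.4% each), beside 11.1% and 12.6% of all genes. That of Chl1, with 121 reads in knockout cells and 19 in control cells, held 1. Hgf, a growth factor that neuropilins can bind, had 2418 reads in knockout cells and 1004 in control cells and was 2.36-fold higher (1.47 to 3.96). Tyrobp, the adaptor of the Trem2 and plexin A1 complex, had 65450 reads in knockout cells and 69564 in control cells, a ratio of 0.92 (0.865 to 0.983). Trem2, named after its values were seen, had 23872 reads in knockout cells and 16359 in control cells, a ratio of 1.43 (1.26 to 1.62).

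Of the adaptor and trafficking genes of neuropilins, 5 of 6 were measured, 1 (Gipc2, at 26 reads in knockout cells and 111 in control cells) was at least 2-fold lower and 0 higher, with a median of -0.48. The interval of Gipc2, 0.00517 to 3.45, held 1. Gipc1, the most counted and the adaptor that binds the tail of neuropilins, had 2301 reads in knockout cells and 3392 in control cells, a ratio of 0.66 (0.485 to 0.915).

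Of the plexin effectors, 22 of 26 were measured, 0 were at least 2-fold lower and 2 (Rnd2 and Farp2) higher, with a median of -0.08. The intervals lay below 1 for 6 of them (27.3%) and above 1 for 3 (13.6%), beside 11.1% and 12.6% of all genes. Those of Rnd2 (0.550 to 14.8) and Farp2 (0.642 to 12.1) held 1. Rap1b, the small GTPase that plexins switch off, had 39827 reads in knockout cells and 40631 in control cells, a ratio of 0.96 (0.884 to 1.04). Of the class B and C plexins 3 of 4 were measured and 0 passed 2-fold, with a median of 0.02. Plxnb2 had 19203 reads in knockout cells and 18617 in control cells, a ratio of 1.01 (0.895 to 1.14), and Plxnb1 had 0 in both.

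**Figure D4:**
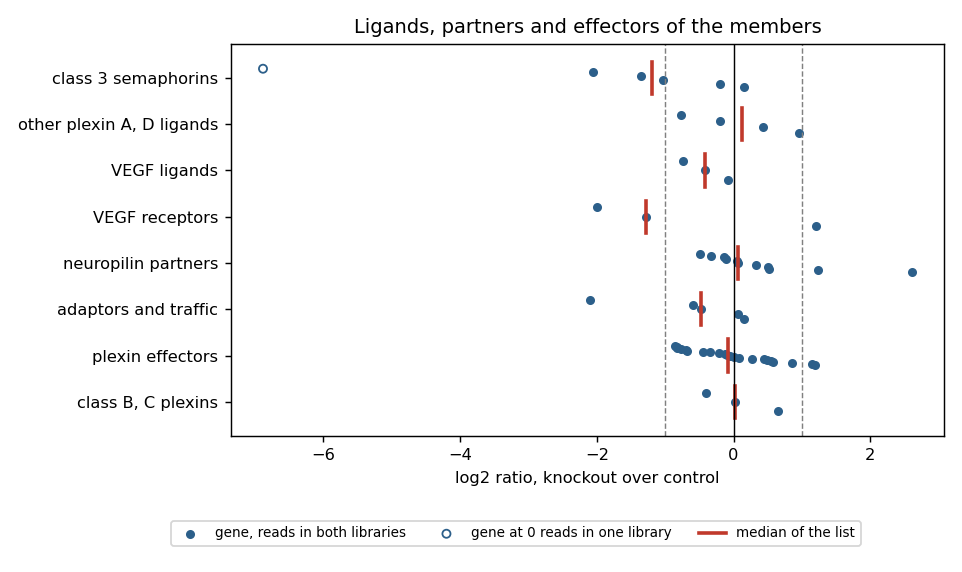
Log2 ratio, knockout over control, of each measured gene (points) of the ligand, partner and effector lists, with the list median (red bar) and dashed lines at 2-fold. The open point is Sema3a, at 0 reads in knockout cells, whose place rests on the prior count, and the medians of the partner, effector and class B and C plexin lists lie near 0.

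Markers of several cell types differed beside Nrp2, Plxna3 and Plxna4, and their part in the results was not tested. Summed macrophage markers stood at 33284 CPM in knockout cells and 26587 CPM in control cells, with 0 of 10 at least 2-fold lower, 1 higher and a median log2 ratio of -0.03. Without Apoe, the other 9 macrophage markers summed to 14599 CPM in knockout cells and 14188 CPM in control cells. Monocyte markers summed to 6553 CPM in knockout cells and 1420 CPM in control cells, with 5 of 8 at least 2-fold lower, 3 higher and a median log2 ratio of -1.54. Chil3 alone carried that higher sum, and the other 7 monocyte markers summed to 487 CPM in knockout cells and 1082 CPM in control cells. Neutrophil markers summed to 1624 CPM in knockout cells and 1667 CPM in control cells, with 1 of 8 lower and 1 higher, and Ly6g was at 0 in control cells. Conventional dendritic cell markers summed to 141 CPM in knockout cells and 423 CPM in control cells, with 6 of 8 lower and Xcr1 at 0 in knockout cells. Plasmacytoid dendritic cell markers summed to 169 CPM in knockout cells and 199.9 CPM in control cells, with 1 of 6 lower and 1 higher. Without Bst2, the other 5 summed to 60.4 CPM in knockout cells and 53.8 CPM in control cells. Tcf4 gave 50.8 CPM of that in knockout cells and 44.4 CPM in control cells.

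Blood endothelial markers, a cell type that also carries neuropilins and plexins, summed to 25.1 CPM in knockout cells and 92.2 CPM in control cells. Of these markers 6 of 11 were at least 2-fold lower, Sox17 and Sox18 were at 0 in knockout cells, and the median was -1.01 with those genes at their bound. Only Pecam1 had at least 1000 reads, and without it the list summed to 8.70 CPM in knockout cells and 30.0 CPM in control cells. Of the lymphatic endothelial markers, whose cells carry Nrp2, 4 of 7 were measured, 0 were lower and 2 (Lyve1 and Flt4) higher, and the list summed to 165 CPM in knockout cells and 123 CPM in control cells. Without Lyve1, which macrophages also express, it summed to 66.7 CPM in knockout cells and 79.1 CPM in control cells, and the interval of Flt4 ran from 0.178 to 302. Pdpn alone gave 64.3 CPM of that remainder in knockout cells and 77.6 CPM in control cells, so the other markers of the list were rare. The defining gene Prox1 had 18 reads in knockout cells and 33 in control cells, and Ccl21a and Mmrn1 were at 0 in control cells.

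T cell markers summed to 53.4 CPM in knockout cells and 166 CPM in control cells, with 8 of 8 lower. B cell markers summed to 17.0 CPM in knockout cells and 146 CPM in control cells, with 4 of 6 lower and Pax5 at 0 in knockout cells. Fibroblast and pericyte markers summed to 204 CPM in knockout cells and 361 CPM in control cells, with 4 of 9 lower, and epithelial markers to 121 CPM in knockout cells and 188 CPM in control cells, with 3 of 6 measured lower and Cldn4 and Cldn7 at 0 in both. Nerve markers summed to 12.2 CPM in knockout cells and 10.3 CPM in control cells, with 1 of 5 lower and 1 higher and Sox10 and Uchl1 at 0 in control cells. Mast cell markers summed to 23.2 CPM in knockout cells and 25.1 CPM in control cells, with 2 of 4 higher. Adipocyte markers summed to 15.8 CPM in knockout cells and 0.868 CPM in control cells, with 2 of 4 measured higher, Adipoq, Plin1 and Retn at 0 in control cells and Lep at 0 in both.

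**Figure D5:**
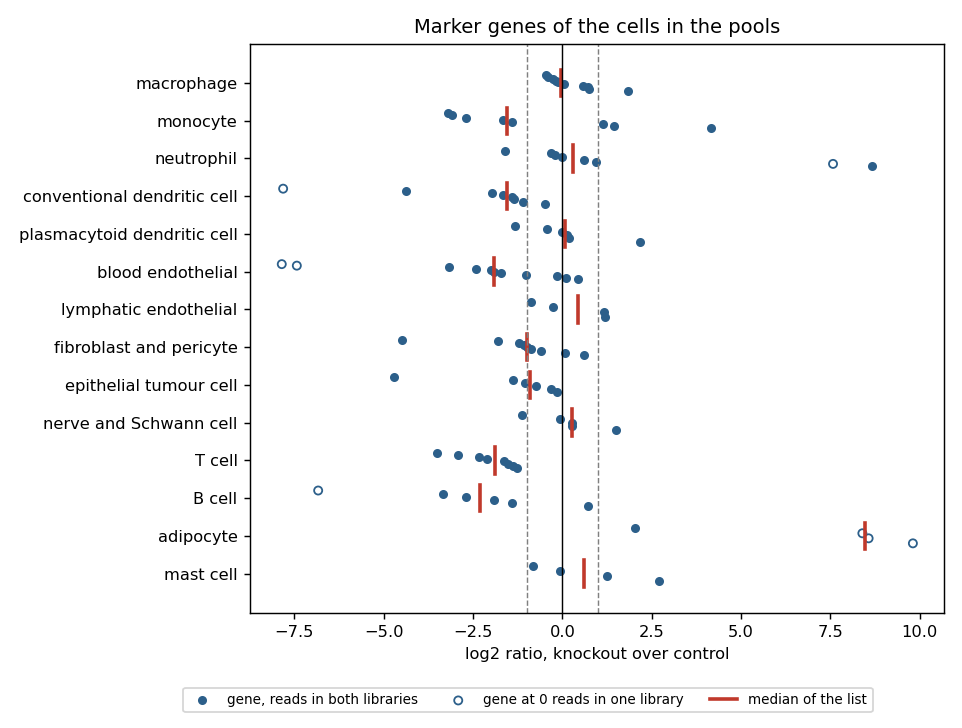
Log2 ratio, knockout over control, of each measured marker gene (points) by cell type, with the list median (red bar) and dashed lines at 2-fold. Open points are genes at 0 reads in one library, whose place rests on the prior count and is no fold, and the bars use these places. The macrophage median is -0.03, and the medians of the monocyte, conventional dendritic cell, blood endothelial, T cell and B cell lists lie below the lower dashed line.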

How the data were processed

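The count table that the authors deposited lists raw reads for each Ensembl gene in 1 pooled library per group. The submitters' processing notes name cutadapt, HISAT2, featureCounts and GRCm38, with no versions or options, and per the file headers the counts are of read 1. A stranded mRNA kit was used, per the labels' protocols. The authors also deposited a comparison table with normalised values, a signal equal to the counts divided by 1 constant per library, and with a log2 fold change, its standard error, a p-value and an adjusted p-value per gene. Per the file headers its column names are those that DESeq2 writes.

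Groups were taken from the sample titles. Of 49585 identifiers, 49326 matched a symbol in the GENCODE annotation of GRCm38, which also gave coordinates and exon lengths. Counts were scaled by the TMM method (edgeR 4.0.16, R 4.3.3), with factors of 0.977 for the knockout and 1.02 for the control library. Log2 ratios, knockout over control, used a prior of 0.5 counts and needed 50 or more reads in total. Size factors from DESeq2 1.42.0 served only as an alternative scaling. Intervals (scipy 1.17.1) are exact conditional intervals, and the ratio step was tested on simulated data. No molecular identifiers are named, so reads are not independent molecules, which is why counts were divided by the reads per fragment.

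The receptor genes and all lists were chosen with earlier results of these data known. The genes named are the 7 receptors, genes of the pathway lists (not the marker lists) with at least 1000 reads and a 2-fold ratio, the most counted gene of each pathway list, the 2 nearest genes on each side of Nrp2, Csf1r, Itgam, Adgre1 and Ptprc, and the 5 genes closest to Nrp2 in level. Predicted, RIKEN and unnamed genes were left out of the search for those 5. Other genes named, those of the marker lists included, were chosen after their values were seen.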

Additional observations from a re-analysis of the deposited data

How the results depend on the processing

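Under DESeq2 size factors, upper-quartile factors, total counts, a prior of 5 counts and the authors' deposited log2 fold changes, the log2 ratio of each receptor gene kept its direction. Nrp2 lay between -3.35 and -3.27, and Nrp1 was closest to 0, at 0.00 with total counts and 0.01 with upper-quartile factors. No scaling moved the median of all genes by more than 0.1 (-0.08 with total counts). Per Itgam read the log2 change of Nrp2 was -3.80, beside -3.02 per Csf1r read. With the upper quartile of reads per fragment, chosen after seeing the data, 1 receptor gene (Nrp2) in place of 3 had an interval below 1. At least 2-fold lower was 1 receptor gene (Nrp2) at a minimum of 1000 reads, and 1 where the whole interval had to pass 2-fold. Of all genes, 4.02% were then lower at 1000 reads and 1.03% with the whole interval. The share higher was 21.9% with no filter, 19.4% at 10 reads, 4.5% at 1000 reads and 0.853% with the whole interval. Of the pathway genes, 7 (12.3%) were lower with Sema3a at its fitted value in place of its bound, 10 were higher at 10 reads, and 1 was lower and 1 higher at 1000 reads. Fewer genes are counted at 1000 reads, and a whole interval past 2-fold is a stricter rule. The shares past 2-fold also fell with depth. Of genes with 50 to 100 reads 48.1% were lower and 30.1% higher, and with 1000 to 10000 reads 4.81% and 4.83%. No paired analysis was possible because each group has 1 library, and no replicate could be left out. Depth limits Plxna2, Plxna3, Plxna4 and the class 3 semaphorins, which rest on a few fragments.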
